A study of Mus musculus with 61 samples.

Results

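This section covers 10 genes of the liver X receptor (LXR) and peroxisome proliferator-activated receptor (PPAR) pathway in mouse microglia, from receptors to LXR target genes. The receptors were Nr1h2 (LXRβ), Nr1h3 (LXRα), Rxra (their shared partner RXRα), Pparg (PPARγ) and Ppard (PPARδ). The targets were Abca1, Abcg1, Mylip, Lpcat3 and Srebf1. A window of the microglia H3K27ac ChIP–seq table belonged to a gene when the table named that gene as the nearest, which gave 194 windows of 133129 in all, and 10 of 19040 named genes. Transcription factor peaks and H3K27ac regions of sorted nuclei were attached to these genes where they overlapped a window, or the mm10 gene body with 5 kb on each side, by at least 1 bp. The genes were chosen by name and the rule used no measured value, but earlier results of these data were known at the time.

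LXRα and LXRβ are nuclear receptors that bind oxysterols and pair with RXRα on DNA, where they raise transcription of genes for cholesterol efflux and lipid remodelling. PPARγ and PPARδ bind fatty acid derivatives and use the same partner. In macrophages and microglia this network handles the lipid taken up with dying cells and myelin. H3K27ac, the acetylation of lysine 27 on histone H3, marks active promoters and enhancers.

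The H3K27ac libraries came from brains of C57/Bl6 mice, either wild type (WT) or homozygous for a CRISPR deletion of the Sall1 super-enhancer (EKO), which removes the zinc-finger factor SALL1 from microglia. Whole microglia, labelled CD45+ CD11b+ CX3CR1+ and gated on low CD45 per the protocol, gave 2 WT and 2 EKO H3K27ac libraries, and nuclei sorted for PU1 (microglia and other myeloid cells), Olig2 (oligodendrocyte lineage) or NeuN (neurons) gave 2 WT and 2 EKO libraries each. Peak lists were deposited for SALL1 in WT and EKO microglia and in microglia of the mouse strains PWK and Spret, and for p300 in WT cells. Lists for SMAD4 covered WT cells and libraries called mutant here. Labels of the mutant libraries name a conditional Smad4 deletion in some fields and EKO in others. The study itself describes SMAD4 ChIP–seq for WT and for EKO microglia. Whether the libraries of a group came from separate animals is not given in the sources used here, so p-values may measure technical spread only.

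Microglia libraries held 9963454 to 24357795 tags, recovered from the step between low values. EKO library 1 stood apart. Its tags summed over windows came to 97.2% of its total, against 33.2% to 54.9% in the other 3. Tags in overlapping windows were counted more than once in these sums. Values were therefore quantile-normalized before testing. Levels are given in deposited normalized tags, scaled to 10000000 tags per library. H3K27ac summed over the Sall1 windows was 4117 and 2471 tags in WT and 312 and 155 in EKO, and the EKO SALL1 list held 7 peaks against 15410 in WT. Among 12 markers of border-associated macrophages, all measured, 6 gained summed H3K27ac in EKO microglia (Mrc1, Pf4, F13a1, Ms4a7, Clec12a and Cybb), none lost it, and their summed level was 1540 and 1073 tags in WT and 5530 and 2012 in EKO. In PU1 nuclei those markers had 6.99 and 36.3 kb of called H3K27ac in WT and 124.5 and 108.9 kb in EKO. Of 10 microglia markers, 1 lost summed H3K27ac at this threshold (Sall1), 6 were lower at an adjusted p under 0.05 alone (limma) and none gained it. By window, microglia markers lost 40 and gained 2 of 199 tested windows. Border-associated macrophage markers gained 30 of 56 and lost none. Over all tested windows 7.56% lost and 8.68% gained. Markers of other cells moved as well. The oligodendrocyte lineage lost 8 of 17 tested windows (Mbp and Mog lost summed H3K27ac, and Sox10 had no window), with a summed level of 1512 and 1135 tags in WT and 1285 and 548 in EKO. Astrocyte markers lost 14 of 19 (Slc1a3 lost), with 2165.6 and 1364 tags in WT and 1538 and 487 in EKO. Monocyte markers gained 14 and lost 3 of 29 windows (Itga4 gained, Plac8 lost), and of the neuronal markers Snap25 lost. The part of these markers in the results below was not tested, and fewer cells carrying the mark cannot be told apart from less mark per cell.

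The 10 genes split by gene rather than moving as a group. Windows of Abca1 gained H3K27ac in EKO microglia, while windows of Abcg1 and Lpcat3 lost it. At Rxra 2 windows gained and at Mylip a distal pair lost it, shares near those of all windows. Of the 194 windows, 118 had a mean over 16 tags and were tested (limma, quantile-normalized log2(tags + 1), called at a Benjamini–Hochberg adjusted p under 0.05 and a fold over 2). Gains were called in 17 of 118 windows (14.4%), 15 of them at Abca1 and 2 at Rxra, and losses in 11 (9.32%), 5 at Abcg1, 4 at Lpcat3 and 2 at Mylip. Of the gaining windows 4 (3 at Abca1, 1 at Rxra) had a WT mean under that minimum and were tested only through EKO, and 3 of the losing windows had an EKO mean under it. Over all 55285 tested windows, 8.68% gained and 7.56% lost. At Abca1, 15 of 36 tested windows (41.7%) gained, and over the other 9 genes 2.44% did. At Rxra 2 of 17 (11.8%) gained. Losses were called in 5 of 17 windows at Abcg1 (29.4%), 4 of 10 at Lpcat3 (40.0%) and 2 of 24 at Mylip (8.33%). Nr1h2, Ppard, Pparg and Srebf1 had 14 tested windows between them and no call, and Nr1h3 had no window above the level minimum. No start-site window was called in either direction.

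**Figure D1:**
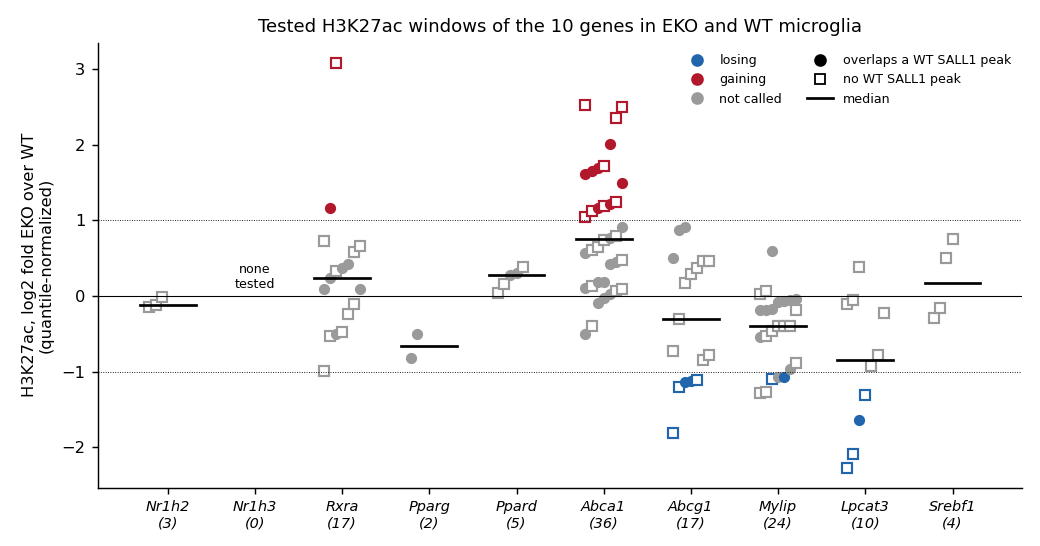
Log2 fold of H3K27ac in EKO over WT microglia (y axis, quantile-normalized) for each tested window of each gene (x axis, number of windows in brackets). Filled circles overlap a WT SALL1 peak, open squares do not, colours give the call, black lines the median and dotted lines a fold of 2. Abca1 windows reach 2.52 and lie mostly above 0, whereas those of Lpcat3 lie mostly below 0, down to -2.27.

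In the values as deposited, both EKO libraries lay above both WT libraries in 16 of the 17 gaining windows, against 17.8% of all tested windows. Both EKO libraries lay below both WT libraries in 4 of the 11 losing windows, against 6.12% of all, and at the other 7 the groups overlapped, EKO library 1 being the higher EKO library at all 28 windows. The calls rested on both scaling and each library. edgeR on the recovered tags called the same 28 windows, and DESeq2 called 16 of the gains and 6 of the losses. With the values as deposited, only 1 gain, at Rxra, and no loss was called. Without WT library 1 or without EKO library 1 no window of these genes was called, without WT library 2 there were 2 losses and 8 gains, and without EKO library 2 there were 4 losses and 8 gains.

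Abca1 encodes the transporter that hands cellular cholesterol and phospholipid to apolipoprotein A-I and is a classical LXR target. Its 15 gaining windows formed 8 separate stretches, 9 of the windows lying in intron 1 of 49, 2 in intron 2, 3 in intron 5 and 1 in intergenic sequence 26.5 kb before the start. The strongest was chr4:53155714-53156714 (mm10), in intron 1 and 3.68 kb into the gene. It held 59.5 and 48.8 tags in the WT libraries and 689.5 and 208 in the EKO libraries. Both EKO libraries were well above both WT libraries, and the log2 fold was 2.52 ± 0.18 (SE, n = 2 libraries per group, limma adjusted p = 4.8e-09). The window chr4:53150204-53151204, 9.19 kb from the start, rose from 32.4 and 24.9 tags to 343 and 119 (2.51 ± 0.22, limma adjusted p = 1.1e-07). The 7 other gaining windows of intron 1 had log2 folds between 1.12 and 2.36. The 5 gaining windows of introns 2 and 5 had folds of 1.05 to 2.01 on the same scale. The windows at 2.36 and 2.01, and another of intron 1 at 1.72, had WT means of 12.25, 11.52 and 4.045 tags. These means were under the minimum of 16 tags, so the windows were tested only through their EKO level.

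The central 200 bases of the strongest window and of the gaining window with a WT SALL1 peak and the smallest adjusted p (chr4:53155079-53156079, 1.62 ± 0.16, limma adjusted p = 3.3e-07) are shown because they carry the gain at Abca1. They are plus-strand mm10 sequence, and capitals mark matches to the short motifs listed further on, a SMAD-type CAGACA (read on the other strand) in the former and an AP-1-type TGANTCA in the latter.
Abca1 strongest window, chr4:53156115-53156314: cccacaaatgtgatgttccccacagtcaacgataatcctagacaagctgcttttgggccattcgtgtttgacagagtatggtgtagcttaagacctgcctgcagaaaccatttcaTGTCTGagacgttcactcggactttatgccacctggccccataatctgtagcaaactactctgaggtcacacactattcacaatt
Abca1 window on a SALL1 peak, chr4:53155480-53155679: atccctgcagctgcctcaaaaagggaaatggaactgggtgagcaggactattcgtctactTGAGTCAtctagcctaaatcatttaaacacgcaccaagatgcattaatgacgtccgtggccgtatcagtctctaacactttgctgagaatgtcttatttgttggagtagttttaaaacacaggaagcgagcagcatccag

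The gain at Abca1 did not extend along the whole gene. The start-site window, 82 bp before the start, held 267 and 195 tags in WT and 516 and 161 in EKO (log2 fold 0.09 ± 0.14, limma adjusted p = 0.71). Between 33.0 and 44.3 kb from the start, where 3 weak windows gained, other windows had WT levels of up to 389 tags on average and the stretch held 11 of the 19 windows of the gene on a WT SALL1 peak and 5 of the 6 on a WT SMAD4 peak. Its window chr4:53126431-53127431, which overlapped all 3 kinds of WT peak, held 487 and 238 tags in WT and 504 and 165 in EKO (-0.50 ± 0.15, limma adjusted p = 0.018, under the fold needed for a call). The window chr4:53120142-53121142, also on all 3, held 459 and 319 tags in WT and 844 and 296 in EKO (0.11 ± 0.12, limma adjusted p = 0.54). The gaining windows were thus weak in WT, with a mean of at most 111 tags, and 3 were tested only through their EKO level. None of the 15 overlapped a WT SMAD4 peak, although 7 overlapped a WT SALL1 peak. One of them, chr4:53124324-53125324, overlapped a SMAD4 peak in the mutant libraries and a p300 peak but no WT SMAD4 peak, and rose from 37.0 and 16.9 tags to 169.6 and 56.8 (1.65 ± 0.29, limma adjusted p = 3.0e-04).

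**Figure D2:**
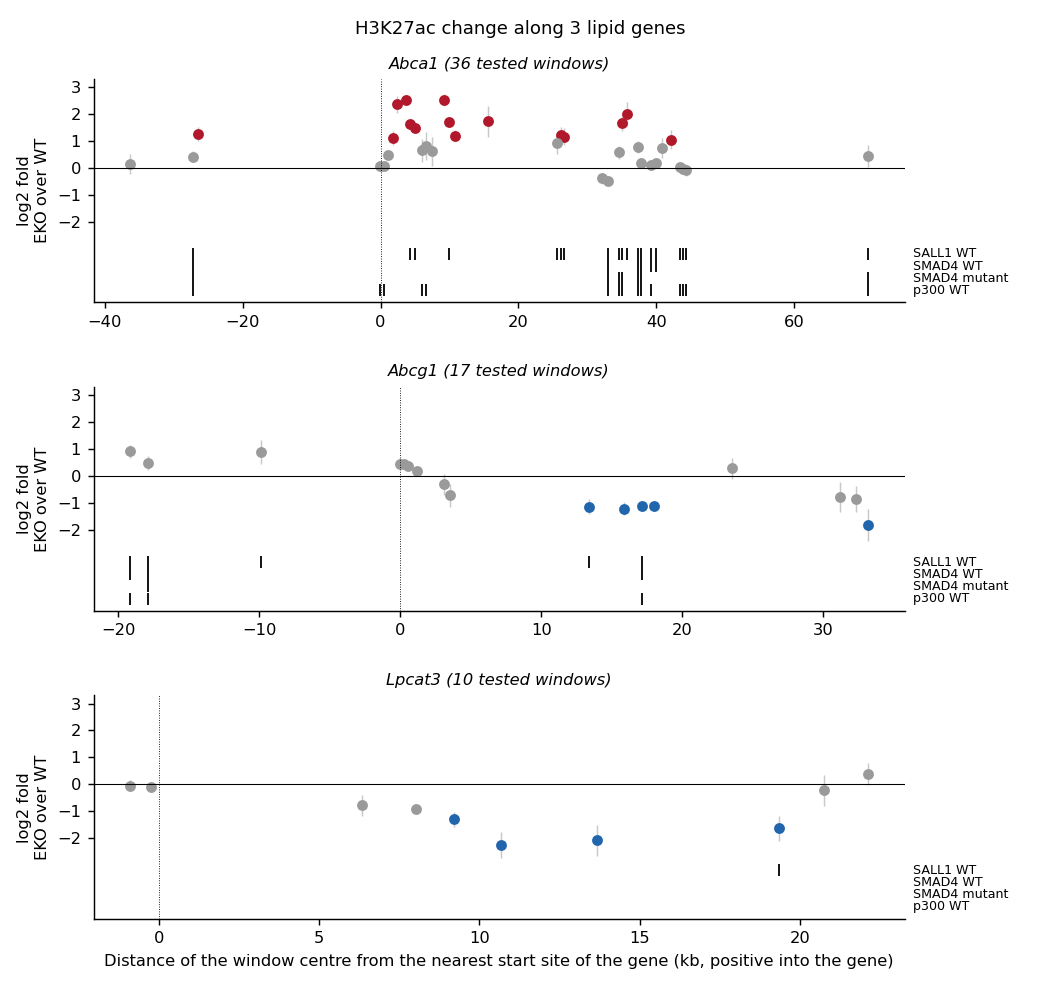
Log2 fold of H3K27ac in EKO over WT microglia (y axis, ± SE) against the distance of each tested window from the start site (x axis, kb) for Abca1, Abcg1 and Lpcat3, red for gaining, blue for losing and grey for not called. Ticks below mark windows that overlap a WT SALL1, WT SMAD4, mutant SMAD4 or WT p300 peak. Gains at Abca1 sit at 1.80 to 15.6 kb and again at 26.2 to 42.1 kb, apart from 1 before the start, and losses at Abcg1 begin 13.4 kb in.

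The PU1 nuclei, a separate set of libraries, gave the same order at most Abca1 windows. Tags of called regions, spread evenly over each region, were higher in both EKO libraries than in both WT libraries at 13 of the 15 gaining Abca1 windows, and at 14 of the 17 gaining windows of all genes, against 26.1% of all tested windows. Over the whole table this order held at 3932 of the 4800 gaining windows. The same order held at 16 of the 21 tested Abca1 windows that were not called. At the strongest window they were 0 and 27 tags in WT and 130.8 and 102 in EKO. WT library 1 of the PU1 nuclei was poor, with 8.04% of its tags in 11149 called regions against 37.8% to 53.5% in the other 3, so it could hardly exceed them. Neighbouring windows often shared 1 called region and were not independent. Across the whole gene with 5 kb flanks, called regions covered 6.75 and 26.8 kb in WT and 40.9 and 34.7 kb in EKO PU1 nuclei. Both EKO values exceeded both WT values, which 2 against 2 libraries can bring to no less than p = 0.33 in an exact permutation test.

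Abcg1, a transporter that passes cholesterol to lipoprotein particles and is induced by LXR together with Abca1 in many cells, went the other way. All 5 losing windows lay in intron 2 of 14. The window with the smallest adjusted p was chr17:31075216-31076216, 18.0 kb from the start. It held 396 and 256 tags in WT and 296 and 102 in EKO, so that the deposited values overlapped, and its quantile-normalized log2 fold was -1.12 ± 0.14 (limma adjusted p = 1.0e-05).

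The central 200 bases of this window are shown because they hold a repeat of the nuclear receptor motif AGGTCA spaced by 4 bases (DR4), the arrangement that LXR with RXR is known to bind. The element read AGGTTAatgtAGGTCA and differed from 2 perfect copies at 1 base.
Abcg1 window with DR4, chr17:31075617-31075816: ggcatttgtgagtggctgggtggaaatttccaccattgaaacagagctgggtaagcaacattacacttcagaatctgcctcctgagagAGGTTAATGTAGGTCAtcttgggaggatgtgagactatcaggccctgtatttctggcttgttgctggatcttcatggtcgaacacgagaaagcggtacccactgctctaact

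The losing Abcg1 window with the lowest level in WT, chr17:31090356-31091356, fell most, from 38.2 and 11.9 tags to 15.1 and 5.23 (-1.81 ± 0.60, limma adjusted p = 0.032, but 0.089 with DESeq2). The start-site window did not follow. It held 85.8 and 76.6 tags in WT and 213 and 82.9 in EKO (0.46 ± 0.21, limma adjusted p = 0.12). A window 19.1 kb before the start on WT SALL1, SMAD4 and p300 peaks held 47.2 and 56.7 tags in WT and 189.7 and 74.7 in EKO, short of the fold (0.91, limma adjusted p = 0.010). In PU1 nuclei all 5 losing windows had fewer tags in both EKO libraries than in WT library 2, for instance 118 in WT library 2 and 61.2 and 42.1 in EKO at the DR4 window. All 11 losing windows of the 10 genes did so, against 46.6% of all tested windows, and WT library 1 lay at or below EKO library 1 in each of them. Both EKO libraries also lay below WT library 2 at 3546 of the 4177 losing windows of the whole table. Among tested windows of the 10 genes that were not called, 50 of 90 had this order. These included 7 of 12 at Abcg1, 18 of 22 at Mylip and 6 of 6 at Lpcat3.

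Lpcat3, which places polyunsaturated fatty acids into membrane phospholipids, lost H3K27ac in 4 of its 10 tested windows (40.0%), all in intron 1 of 11. The deepest fall was at chr6:124673273-124674273, from 50.1 and 25.9 tags in WT to 12 and 8.21 in EKO (-2.27 ± 0.49, limma adjusted p = 0.0019). Here both EKO libraries lay below both WT libraries also as deposited. At chr6:124671805-124672805 the levels were 119 and 59.7 in WT and 61.2 and 26.9 in EKO (-1.30 ± 0.27, limma adjusted p = 0.0012). The stronger window chr6:124670610-124671610 just before it, with the smallest p of the gene, went from 383 and 237 to 346 and 101.6 tags and did not reach the fold (-0.92 ± 0.15, limma adjusted p = 9.7e-05). The start-site window held 231 and 128 tags in WT and 301 and 117 in EKO (-0.10 ± 0.17, limma adjusted p = 0.71). In PU1 nuclei the region over the deepest fall had 159 tags in WT library 2 and 9.06 and 0 in EKO, and 0 in WT library 1.

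Only 1 losing Lpcat3 window overlapped a WT SALL1 peak, chr6:124681953-124682953, which held 25.0 and 35.8 tags in WT and 30.1 and 5.97 in EKO (-1.64 ± 0.47, limma adjusted p = 0.015, but 0.12 with DESeq2). The gene body with flanks, which includes Emg1, held 2 WT SALL1 peaks. No window of the gene overlapped a SMAD4 or p300 peak. The sequence of that window is shown as the called window of the gene on a SALL1 peak, with the core of the PU.1 motif, GAGGAA read on the other strand, in capitals.
Lpcat3 window on a SALL1 peak, chr6:124682354-124682553: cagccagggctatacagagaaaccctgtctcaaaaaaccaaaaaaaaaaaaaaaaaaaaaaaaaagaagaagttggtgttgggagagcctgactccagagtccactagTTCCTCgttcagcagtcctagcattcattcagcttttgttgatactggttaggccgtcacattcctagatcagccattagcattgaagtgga

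Mylip encodes an E3 ubiquitin ligase that directs the LDL receptor to degradation. Its 2 losing windows overlapped each other in intergenic sequence about 123 kb before the start, where nearest-gene naming is an uncertain link. The window chr13:45266355-45267355 held 65.7 and 39.8 tags in WT and 51.2 and 17.2 in EKO (-1.07 ± 0.30, limma adjusted p = 0.014, but 0.068 with DESeq2), on WT SALL1 and p300 peaks. Its neighbour chr13:45267046-45268046 held 55.0 and 38.8 tags in WT and 30.1 and 24.6 in EKO (-1.10 ± 0.37, limma adjusted p = 0.037, but 0.19 with DESeq2), below WT in both EKO libraries. Of the 24 tested windows of the gene, 21 had a negative log2 fold, with a median of -0.40, and the other 22 were not called. The start-site window held 103 and 119 tags in WT and 164.6 and 60.5 in EKO (-0.40 ± 0.23, limma adjusted p = 0.23).

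Both windows are shown as the distal loss, the former with a PU.1 core and the latter with a DR4 element, AGGTCAtcttATGTCA, which also differed from 2 perfect copies at 1 base, and a CAGACA on the other strand.
Mylip window on SALL1 and p300 peaks, chr13:45266756-45266955: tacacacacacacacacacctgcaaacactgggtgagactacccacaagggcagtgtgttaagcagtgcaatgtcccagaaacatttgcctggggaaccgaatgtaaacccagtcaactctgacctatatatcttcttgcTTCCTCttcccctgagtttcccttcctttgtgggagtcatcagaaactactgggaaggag
Mylip window with DR4, chr13:45267447-45267646: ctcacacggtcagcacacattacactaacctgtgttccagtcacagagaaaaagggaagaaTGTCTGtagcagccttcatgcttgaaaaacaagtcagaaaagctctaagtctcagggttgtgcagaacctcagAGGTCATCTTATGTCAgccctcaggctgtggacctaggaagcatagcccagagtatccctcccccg

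**Figure D3:**
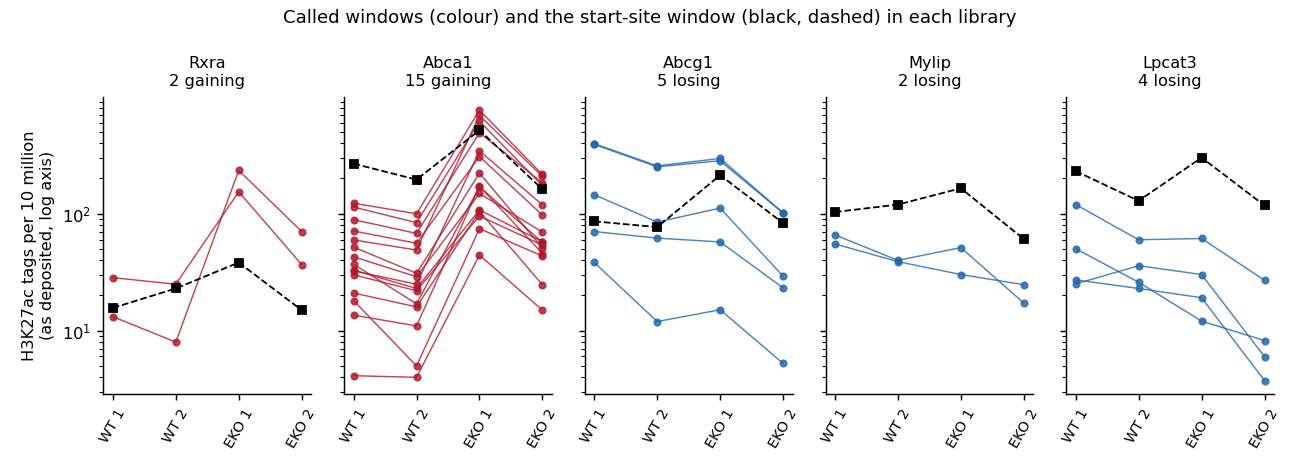
H3K27ac level as deposited (y axis, normalized tags, log axis) in each of the 4 microglia libraries (x axis) for the called windows of 5 genes (red gaining, blue losing, 1 line per window joining its libraries) and for the window nearest to each gene's start (black, dashed). EKO library 1 is above EKO library 2 at all 28 called windows, the gaining windows of Abca1 lie above WT in EKO library 2 as well except 1, and the losing windows are lowest in EKO library 2.

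Among the receptors, only Rxra had called windows. The window chr2:27713857-27714857 lay in intron 1 of 9 of a transcript with an alternative start, 3.77 kb from that start. It held 13.1 and 7.96 tags in WT and 233.9 and 70.2 in EKO. The log2 fold was 3.08 ± 0.30 (limma adjusted p = 3.2e-07). The WT mean was under the minimum of 16 tags, so the window was tested only through its EKO level. This was the window that stayed called with the values as deposited (log2 fold 3.52, limma adjusted p = 0.028). It overlapped no SALL1, SMAD4 or p300 peak. In PU1 nuclei it lay inside a called region that also covered neighbouring windows, with 0 and 154 tags in WT and 152 and 109.8 in EKO, so that a difference confined to this window could not be seen there. The other gaining window, chr2:27727632-27728632, lay on a WT SALL1 peak and went from 28.3 and 24.9 tags to 153.6 and 36.6 (1.16 ± 0.29, limma adjusted p = 0.0060). In PU1 nuclei it had 9.47 and 42.6 tags in WT and 117 and 83.7 in EKO.

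The sequences of both Rxra windows are shown, the former because it stayed called with the values as deposited and holds none of the motifs searched, and the latter with a C/EBP-type TTGCNNAA (read on the other strand) in capitals.
Rxra strongest window, chr2:27714258-27714457: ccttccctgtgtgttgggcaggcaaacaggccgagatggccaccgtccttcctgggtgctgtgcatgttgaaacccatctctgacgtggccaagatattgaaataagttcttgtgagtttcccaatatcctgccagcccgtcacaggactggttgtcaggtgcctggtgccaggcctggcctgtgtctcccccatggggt
Rxra window on a SALL1 peak, chr2:27728033-27728232: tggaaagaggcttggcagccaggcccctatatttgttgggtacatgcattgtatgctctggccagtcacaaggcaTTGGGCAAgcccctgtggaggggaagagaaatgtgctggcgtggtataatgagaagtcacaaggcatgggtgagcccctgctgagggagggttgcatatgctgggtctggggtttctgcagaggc

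The start-site window of Rxra, chr2:27676651-27677651, was at another start, upstream of both called windows. It was low, with 15.6 and 22.9 tags in WT and 38.1 and 14.9 in EKO (-0.10 ± 0.42, limma adjusted p = 0.90). For the LXR receptors the signal in windows named for them was at the start site or near absent. Nr1h2, the LXR form expressed in most tissues, had 574 and 433 tags at its start in WT and 969 and 319 in EKO (-0.12 ± 0.11, limma adjusted p = 0.44), and the other 2 tested windows had log2 folds between -0.14 and -0.01. Nr1h3, the LXR form enriched in macrophages and liver, had 9.44 and 4.98 tags at its start-site window in WT and 18.1 and 6.72 in EKO. Its only other window had 9.85 and 11.9 against 22.1 and 11.9, and both windows were under the minimum for a test. In PU1 nuclei, called regions covered 2.17 to 9.90 kb of the Nr1h3 body with 5 kb flanks. That interval also contains Madd and Acp2, so the locus was not free of the mark. Ppard had 433 and 321 tags at its start in WT and 803 and 316 in EKO (0.16 ± 0.12, limma adjusted p = 0.39). Its 5 tested windows all had positive log2 folds of 0.04 to 0.38, the window with the smallest p lying 0.85 kb into the gene (0.38 ± 0.14, limma adjusted p = 0.064). Pparg was close to unmarked at its start, with 3.69 and 0 tags in WT and 12 and 0 in EKO. Only 2 of its 16 windows were tested, and the one with the smallest p had 33.7 and 16.9 tags in WT and 27.1 and 11.9 in EKO (-0.82 ± 0.44, limma adjusted p = 0.19).

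Srebf1, which encodes the SREBP1 factors that switch on fatty acid synthesis and is a target of LXR in liver and macrophages, had no call among 4 tested windows. Its start-site window held 75.5 and 44.8 tags in WT and 136.5 and 29.1 in EKO (-0.16 ± 0.28, limma adjusted p = 0.73). The smallest p was at another start of the gene, where 32.4 and 20.9 tags in WT stood against 102 and 29.9 in EKO (0.75 ± 0.31, limma adjusted p = 0.083). The groups overlapped at both windows.

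Summed over all windows of each gene, none of the 10 passed the fold of 2, against 3.83% of 14595 tested genes losing and 5.10% gaining. The sums of 3 genes differed at an adjusted p under 0.05 with limma, and of 5 at an unadjusted p under 0.05. edgeR and DESeq2 also gave 3 genes at an adjusted p under 0.05 and none past the fold. At an adjusted p under 0.05 alone, 11.6% of all genes were higher and 11.9% lower. Abca1 rose, from 4646 and 2981 tags in WT to 11417 and 3780 in EKO (0.63 ± 0.07, limma adjusted p = 2.2e-07), and Rxra rose, from 602 and 580 to 1620 and 623 (0.46 ± 0.13, limma adjusted p = 0.013). Without WT library 1, EKO library 1 or EKO library 2 the limma adjusted p of Rxra was 0.35, 0.10 or 0.28, with log2 folds of 0.24, 0.56 and 0.37. Lpcat3 fell after quantile normalization (-0.67 ± 0.12, limma adjusted p = 1.6e-04), its deposited sums of 1032 and 640 tags in WT and 1076 and 370 in EKO overlapping, and the limma adjusted p was 0.061 without WT library 1. Abcg1 went from 1914 and 1316 to 2704 and 946 (-0.25 ± 0.09, limma adjusted p = 0.051). The sums of Nr1h2, Nr1h3, Pparg, Ppard, Mylip and Srebf1 had log2 folds between -0.19 and 0.20. With the values as deposited no gene had an adjusted p under 0.05. That scaling moves the median log2 fold of all genes from -0.03 to 0.32, and it turns the signs of Nr1h2, Pparg, Abcg1 and Mylip to positive values of 0.01 to 0.21, all below that median.

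WT SALL1 peaks overlapped 54 of the 194 windows (27.8%, against 13.7% of all windows), WT p300 peaks 33 (17.0% against 9.64%) and WT SMAD4 peaks 15 (7.73% against 4.89%). Among tested windows only, the shares were 40.7% against 26.4% for SALL1, 25.4% against 20.6% for p300 and 11.9% against 11.1% for SMAD4. The SALL1 windows were spread over Abca1 (19), Mylip (12), Rxra (9), Pparg (6), Abcg1 (5), Ppard (2) and Lpcat3 (1), and there were none at Nr1h2, Nr1h3 or Srebf1 by nearest-gene name. All 15 windows with a WT SMAD4 peak also had a WT SALL1 peak, and 13 of them had a p300 peak too. No window overlapped an EKO SALL1 peak. PWK SALL1 peaks overlapped 4 windows (2.06%, against 3.42% of all windows), 3 of them at Abcg1. Spret SALL1 peaks overlapped 4 (2.06% against 2.20%), 2 of them at Abca1. The PWK and Spret lists were shorter than the WT list, with 3627 and 2245 peaks against 15410. Windows of these genes with a SALL1 peak moved in either direction. WT SALL1 peaks overlapped 8 of the 17 gaining windows (47.1%), 4 of the 11 losing (36.4%) and 36 of the 90 tested windows that were not called (40.0%). WT SMAD4 peaks overlapped none of the 17 gaining, 1 of the 11 losing and 13 of the 90 others, and p300 peaks 1, 2 and 27. Each group had 1 list, made by the authors from its replicate libraries, so there was no value per library and no test was made. Over all windows of the table, WT SALL1 peaks overlapped 23.0% of the gaining and 28.1% of the losing windows. WT SMAD4 peaks overlapped 2.90% and 13.2% of them, and p300 peaks 7.92% and 20.2%.

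Within gene bodies and 5 kb flanks, the lists held 31 WT SALL1 peaks for the 10 genes, 10 at Abca1 and 8 at Rxra. Nr1h3 had 2 WT SALL1 peaks, 1 WT SMAD4 peak and 1 p300 peak there although none of its own windows overlapped one, and that interval also contains Madd and Acp2. WT SMAD4 peaks numbered 8, 3 of them at Abca1 and 2 at Ppard. The mutant libraries also had 8 SMAD4 peaks, 4 of them at Abca1, 2 at Rxra and 2 at Ppard. They had none at Abcg1, where the WT list had 1. The whole lists differed in size, with 4024 SMAD4 peaks in WT and 2333 in the mutant libraries. Mutant SMAD4 peaks overlapped 5.67% of the 194 windows, against 3.025% of all windows. Peaks in gene bodies were not counted over all genes. Abca1 had SMAD4 peaks in both lists, with 6 of its windows on a WT and 7 on a mutant SMAD4 peak.

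Motifs were searched in the central 200 bases of every window on both strands. DR4 (2 copies of AGGTCA with 4 bases between them, at most 1 change in each) was in 5 of the 194 windows (2.58%) and in 1.55% of all windows. It was in 2 of the 11 losing windows, 1 at Abcg1 and 1 at Mylip, and in none of the 17 gaining windows, against 1.36% and 1.23% of all losing and gaining windows. DR1, the same with 1 base between the copies and the form bound by PPAR with RXR, was in 5 windows (2.58%, against 1.64% of all) and in no called window. GAGGAA was in 4 of the 17 gaining and 4 of the 11 losing windows (36.4% of all windows), CAGACA in 3 and 3 (18.9%), TGANTCA in 3 and none (7.64%), TTGCNNAA in 2 and none (9.37%) and the AT-rich TATTTA in 2 and none (7.66%). These counts are small and overlapping windows share sequence, so they describe the windows only. In the 250 bases before the annotated starts (RefSeq, GRCm38.p6), no promoter of the 9 genes listed held DR4, against 1.48% of all promoters, and 1 of the 2 listed for Rxra held DR1. Abcg1 had no entry.

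Across sorted nuclei the covered length varied by gene and cell type. Neuronal markers had 399 to 519 kb of called regions in NeuN and at most 2.24 kb in PU1 libraries, the oligodendrocyte lineage 168 to 174 kb in Olig2 libraries, and microglia markers 147 to 244 kb in PU1 and at most 34.4 kb in the others. Some markers were also covered outside their own nuclei, the oligodendrocyte lineage over 47.9 to 66.8 kb in NeuN and up to 25.9 kb in PU1 libraries, and astrocyte markers over 11.6 to 33.2 kb in PU1 and 24.4 to 28.0 kb in Olig2 libraries. The intervals of 5 genes also held other coding genes, whose regions were counted with them (Pold1 with Nr1h2, Madd and Acp2 with Nr1h3, Def6 with Ppard, Emg1 with Lpcat3, Rai1 and Tom1l2 with Srebf1). Called regions covered more of the gene in all 4 PU1 than in all 4 NeuN libraries for 4 genes (Abca1, Ppard, Mylip and Lpcat3, against 7.68% of 16531 covered genes) and less for 2 (Nr1h3 and Pparg, against 44.8%). Against Olig2 nuclei they covered more for 6 (Nr1h3, Rxra, Pparg, Ppard, Mylip and Lpcat3, against 10.2% of 15411 genes) and less for 2 (Abcg1 and Srebf1, against 33.7%). A complete separation of 4 from 4 libraries gives p = 0.0286, the smallest of a two-sided exact permutation test, and 20 such comparisons were made. The counts combine WT and EKO libraries and include PU1 WT library 1, which had 8.04% of its tags in called regions. Without that library 5 genes had more in PU1 than in NeuN nuclei, with Rxra added, and 8 had more than in Olig2 nuclei.

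Abca1 was covered over 27.3 ± 14.8 kb (mean ± SD, n = 4) in PU1 nuclei, 9.36 ± 2.13 kb in Olig2 nuclei and 1.12 ± 1.14 kb in NeuN nuclei. Its PU1 and Olig2 values overlapped (exact permutation p = 0.14, and 0.0286 without PU1 WT library 1, at 6.75 kb). Abcg1 was covered over 8.70, 24.1, 17.8 and 15.3 kb in PU1 nuclei, 28.9, 29.5, 35.0 and 25.0 kb in Olig2 nuclei and 16.2, 10.3, 16.7 and 11.7 kb in NeuN nuclei, in the order WT 1, WT 2, EKO 1 and EKO 2. The Olig2 values were above every PU1 value (exact permutation p = 0.0286, and 0.057 without PU1 WT library 1), but with tags in place of kb they overlapped (exact permutation p = 0.14). PU1 and NeuN values of Abcg1 overlapped (exact permutation p = 0.57). Srebf1 was likewise covered most in Olig2 nuclei, 8.56 to 12.1 kb against 0.50 to 2.98 kb in PU1 and 2.30 to 3.55 kb in NeuN nuclei. Mylip and Lpcat3 had their highest coverage in PU1 nuclei, 3.89 to 10.3 kb and 7.20 to 21.2 kb, with at most 0.64 and 4.44 kb in Olig2 nuclei and 3.88 and 5.94 kb in NeuN nuclei.

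For the receptors, Rxra was covered over 41.4, 36.5 and 33.6 kb in 3 PU1 libraries and 6.91 kb in WT library 1, against 2.00 to 3.3 kb in Olig2 and 7.34 to 8.57 kb in NeuN nuclei. Ppard followed the same order between PU1 and Olig2, 12 to 26.0 kb against 8.81 to 10.6 kb, with 1.80 to 4.55 kb in NeuN nuclei. Pparg was the reverse, with 6.76 to 11.8 kb in NeuN, 0.68 to 2.31 kb in PU1 and 0 kb in all 4 Olig2 libraries. Nr1h3 had 11.0 to 12.3 kb in NeuN and 2.17 to 9.90 kb in PU1 nuclei in an interval shared with Madd and Acp2, and with tags in place of kb the means were 623 in NeuN and 864 in PU1 nuclei, the other way round and overlapping (exact permutation p = 0.40). Nr1h2, a short gene, had 0 to 1.58 kb in all 3 types, which overlapped in part. Between genotypes, both EKO values lay above both WT values in PU1 nuclei for Abca1 and Nr1h2 (0.89 and 1.10 kb in WT, 1.30 and 1.32 kb in EKO), and for the other 8 genes the PU1 libraries overlapped. Lpcat3, for instance, had 7.20 and 21.2 kb in WT and 12.4 and 7.82 kb in EKO.

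**Figure D4:**
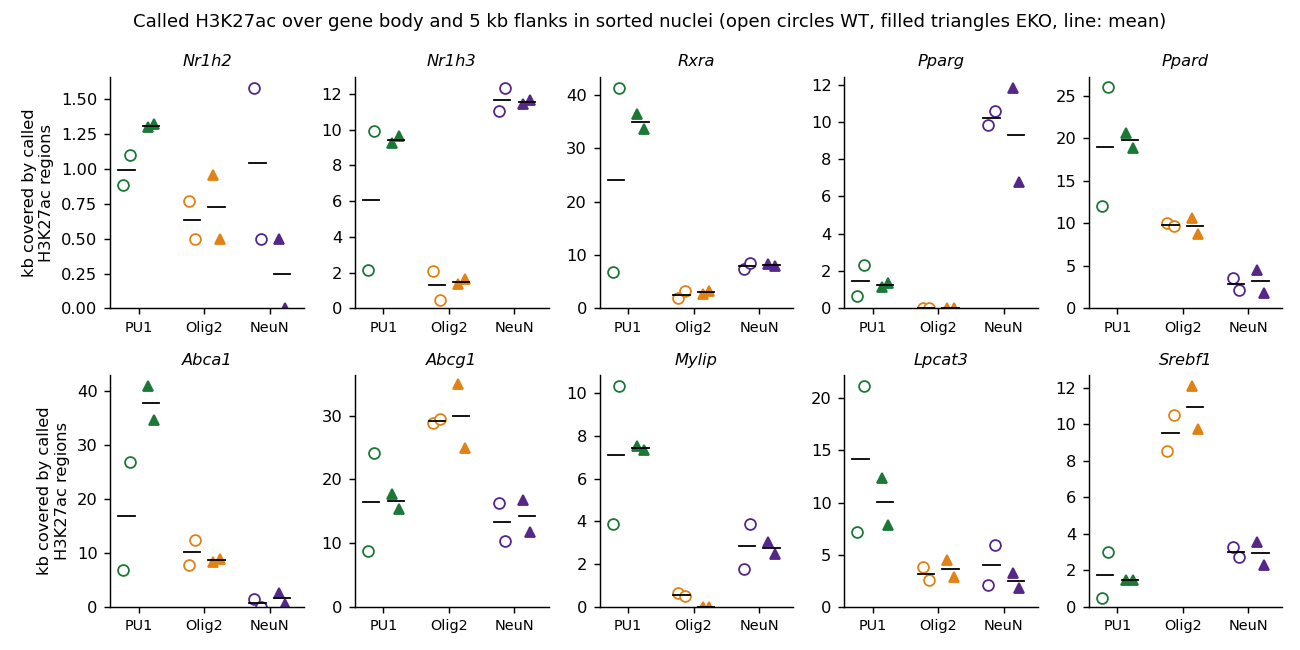
Length of gene body and 5 kb flanks covered by called H3K27ac regions (y axis, kb, own scale per gene) in PU1, Olig2 and NeuN nuclei (x axis), with open circles for the 2 WT and filled triangles for the 2 EKO libraries and a line at their mean. By the mean of all 4 libraries of a type, Abca1, Rxra, Ppard, Mylip, Lpcat3 and Nr1h2 are covered most in PU1 nuclei. Abcg1 and Srebf1 are covered most in Olig2 nuclei, and Pparg and Nr1h3 in NeuN nuclei. Single libraries of some genes overlap between types.

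Among 44 other receptors, coregulators and targets of the pathway, 41 were in the microglia table and 34 were tested as summed genes. Summed H3K27ac rose past the fold for 7 and fell for none, against 5.10% and 3.83% of all tested genes. Of the 217 tested windows of the list, 38 gained and 8 lost, against 8.68% and 7.56% of all tested windows. The list was drawn up with earlier results of these data known, so these counts are no test of the pathway. The study itself reported Apoe, Apoc1 and Apoc2 as upregulated in EKO microglia. The 7 genes past the fold were Apoc1, Apoc2, Plin2, Cd36, Apoe, Rxrg and Ncoa1. Apoe, the main lipid carrier of the brain, went from 90.7 and 55.8 tags in WT to 735.7 and 246 in EKO (2.23 ± 0.20, limma adjusted p = 7.9e-09). Its neighbour Apoc1 went from 47.2 and 27.9 to 736.7 and 246 (3.17 ± 0.23, limma adjusted p = 2.3e-10), and Apoc2, in the same cluster, from 19.3 and 24.9 to 542 and 164 (3.34 ± 0.27, adjusted p = 1.4e-09). These 3 genes adjoin one another, and nearest-gene naming decides which window counts for which. Plin2, a coat protein of lipid droplets, went from 259.9 and 211 to 1590 and 509 tags (1.63 ± 0.14, limma adjusted p = 2.8e-09), and Cd36, a fatty acid and oxidized lipoprotein receptor, from 103.9 and 54.8 to 861 and 285 (2.37 ± 0.20, adjusted p = 4.0e-09). In all 5 of these genes the sums of both EKO libraries lay above those of both WT libraries. Rxrg and Ncoa1 rose less, by 1.08 ± 0.20 (limma adjusted p = 2.8e-04) and 1.13 ± 0.23 (limma adjusted p = 6.3e-04) on the log2 scale. Fasn, the fatty acid synthase, had the lowest log2 fold among genes of the list with an adjusted p under 0.05, -0.88 ± 0.19 (limma adjusted p = 9.2e-04), from 429 and 215 tags in WT to 336 and 125 in EKO, short of the threshold on the fold.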

How the data were processed

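Per the labels and the study's methods, the authors aligned reads to mm10 with Bowtie2, and HOMER counted tags. The deposited microglia table holds H3K27ac signal as normalized tags (scaled by the authors to 10000000 tags per library) in windows of 1000 bp named by nearest gene. The deposited lists of the nuclei give HOMER regions with normalized tags and the fold over input that the authors required (at least 4). The deposited peak lists give the authors' IDR score per peak, 1 list per group. The library sizes of the nuclei are known only as lower limits for 10 of the 12 lists.

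The 10 genes and all lists were chosen with earlier results of these data known. Tags were recovered from the value steps, 100% whole within 0.05 tags. Windows or gene sums with a mean over 16 were quantile-normalized as log2(tags + 1) and tested with limma 3.58.1 (trend), called at a Benjamini–Hochberg adjusted p under 0.05 and a fold over 2. edgeR 4.0.16 and DESeq2 1.42.0 on recovered tags, other settings and left-out libraries were alternatives. Nuclei were compared by kb covered with exact permutation tests over libraries. Libraries of a group differed beyond sampling noise (chi-square over degrees of freedom 3.21 in WT and 2.90 in EKO). Every gene of the list was described by its start-site window, its window of smallest p and all called windows, apart from 1 item that is not reported here. Sequences came from GRCm38.p6. The scripts were tested on simulated data. Input libraries were not used here.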

Additional observations from a re-analysis of the deposited data

Results flagged for a closer look

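Of 30 groups of 4 libraries of sorted nuclei (10 genes in PU1, Olig2 and NeuN nuclei), 1 had a library far from the other 3, where chance gives about 1 in 20. In PU1 nuclei, Nr1h3 with its flanks was covered over 2.17 kb in WT library 1 and over 9.90, 9.25 and 9.63 kb in the other 3, a gap of 0.915 of the whole range. The same library had 8.04% of its tags in called regions.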

How the results depend on the processing

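The gains and losses of single windows rested on the scaling and on each library. With the values as deposited, 0 losing and 1 gaining window were called in place of 11 and 17. Losing windows fell to 6 without a filter on low values, where 133098 windows were tested, and to 6 with DESeq2. Without WT library 1 or EKO library 1, 0 losing and 0 gaining windows were called, without WT library 2 they were 2 and 8, and without EKO library 2 they were 4 and 8. Such fits leave 1 library in a group, which is assumed to vary like the other group. The counts of gaining windows under the other settings, and those of losing windows with edgeR or a pseudocount of 5, stayed within 1.5 times. Over all windows tested, 4177 lost and 4800 gained, against 71 and 450 with the values as deposited (median log2 fold 0.28 in place of -0.03), 2939 and 3861 without a filter, 2837 and 4290 with DESeq2, 4044 and 5718 with edgeR, 520 and 1613 without WT library 2, 1938 and 1260 without EKO library 2, and 0 and 0 without WT library 1 or EKO library 1. No called window of the 10 genes changed sign under any setting. Summed over windows, none of the 10 genes passed the fold under any setting. With the values as deposited the log2 fold turned to 0.19 for Nr1h2, 0.21 for Pparg, 0.011 for Abcg1 and 0.059 for Mylip, and for Srebf1 it ranged from -0.15 to 0.35 with a library left out, below 0 without WT library 2 and without EKO library 1. With 1 library left out, 1 to 3 of the gene sums had an adjusted p under 0.05, and with the values as deposited 0. The cause was not tested.

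The replicate numbers do not pair the samples (correlation of deviations 0.036 over 2 pairs). With the replicate number as a block, 11 losing and 17 gaining windows were called, the same ones, and 0 of the 10 genes past the fold in either direction. The block took the limma adjusted p of the Abcg1 sum from 0.051 to 0.013, so that 4 genes in place of 3 had one under 0.05.

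With summed tags in place of kb, 1 gene had less in PU1 than in NeuN nuclei and 1 less than in Olig2 nuclei, each in place of 2, and with regions of a fold over input of 8 or more 1 gene had less than in Olig2 nuclei. Within the central 200 bp of windows, 35 overlapped a WT SALL1 peak and 21 a p300 peak. All other counts for nuclei and peaks stayed within 1.5 times. The 2 libraries per group and the uneven sums of tags over windows limit every microglia comparison.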
